A study of Mus musculus with 9 samples.

Results

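Ependymal and motile cilium genes were followed in RNA sequencing (RNAseq) counts from tissue punches of the hypothalamic paraventricular nucleus (PVN) of male mice. The set holds 35 of the 27179 genes in the count table and was chosen as a list, by name and known function. It holds 3 transcription factors of multiciliated cells, 5 markers of ependymal cells, and structural or assembly proteins of the beating cilium. 34 genes were found by their current symbol and Dnai1 was found by its older symbol, Dnaic1. All 35 passed the filter on low counts, which left 17344 genes to test. Every mouse was wild type, C57BL/6 by the labels and C57BL/6J by the methods of the study, and no gene was targeted. Control mice ate chow. HFD mice were placed at 5 weeks of age on a high-fat diet with 60% of calories from fat for 12 weeks. HFD+Mino mice ate the same high-fat diet and received minocycline, an antibiotic that dampens microglial activation, at 40 mg/kg/day in their drinking water for the last 6 weeks. Each group had 3 independent mice with 1 library per mouse, and the sample labels give an age of postnatal day 35 for all 9, which matches the age at the start of the diet and not the end of its 12 weeks. The comparisons address how the diet altered transcription in the PVN and how minocycline altered it under the same diet.

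Ependymal cells form the lining of the brain ventricles, including the third ventricle that borders the PVN, and carry tufts of motile cilia that move cerebrospinal fluid. A motile cilium is built on an axoneme of microtubule doublets around a central pair. Dynein arms slide the doublets past each other, while nexin-dynein links, radial spokes and the central apparatus shape the beat. The transcription factor FOXJ1 switches on the genes of this machinery together with RFX factors, which bind a DNA motif named the X-box.

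Total counts ranged from 17728590 to 42326213 per library, and between 19265 and 22451 genes had at least 1 read. The first Control library stood apart and went against its tissue label. Its summed level of 6 PVN markers (Sim1, Otp, Avp, Oxt, Crh and Trh) was 27.8 CPM (read counts scaled to a common library size), against 932 to 37726 CPM in the other 8 libraries. In that library Otp had no reads, which allows a count of up to 3, and elsewhere it was at only 0.371 to 2.77 CPM. Avp was at 0.149 CPM, Oxt and Sim1 at 0.770 CPM and Trh at 5.49 CPM in the first Control library. Crh was not low there, at 20.6 CPM against 18.0 CPM in the second Control library and 14.4 CPM in the first HFD library. The 8 oligodendrocyte markers summed to 29514 CPM in the first Control library, against 2271 to 6944 CPM elsewhere. The first and second HFD+Mino libraries also stood apart, with PVN marker sums of 37726 and 31917 CPM against at most 3726 CPM in the rest. Differences from Control are therefore given with all 9 samples and without the first Control library, while the log2 fold changes of HFD+Mino against HFD hardly moved without it, though their FDRs did. In bulk tissue, fewer ependymal cells and less RNA per ependymal cell cannot be told apart.

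The 35 genes had their lowest level in Control and a higher level on the high-fat diet, with or without minocycline, but no gene passed the threshold in any comparison. The group mean was lowest in Control for all 35 genes. It was highest in HFD for 22 genes, which include the 3 transcription factors, 4 dynein heavy chains and the central apparatus. For the other 13 genes, which include all 5 ependymal markers, it was highest in HFD+Mino. The first Control library was the lowest of the 9 samples for 34 genes, and the exception was Tppp3, lowest in the third Control library. The first HFD library was the highest sample for 22 genes, the second HFD+Mino library for 10 and the first HFD+Mino library for 3.

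**Figure D1:**
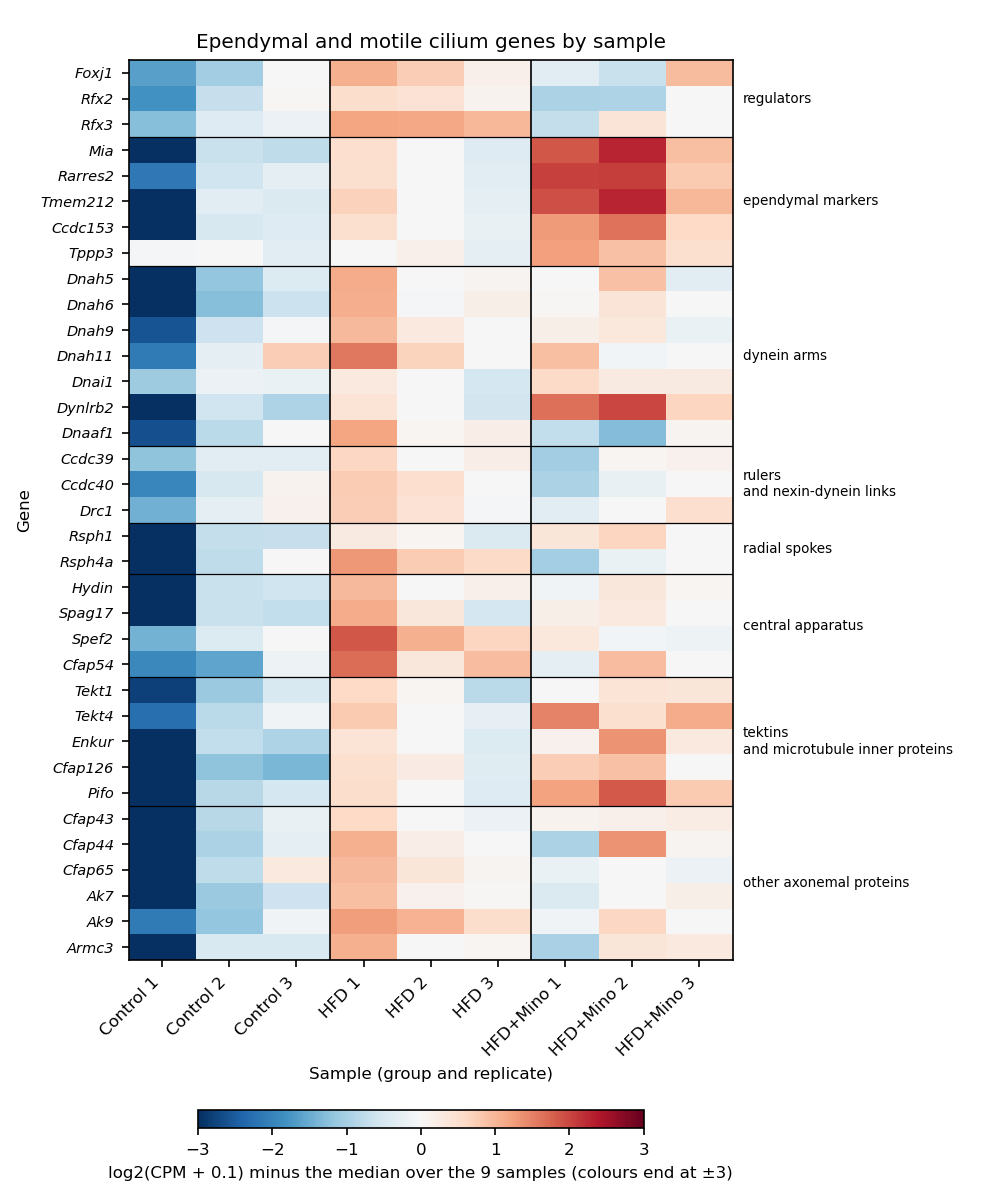
Level of each of the 35 genes (rows, grouped by role) in each of the 9 samples (columns), as log2(CPM + 0.1) minus the median of that gene over the 9 samples, with colors ending at ±3. The Control 1 column is the lowest for 34 genes, and the ependymal markers and Dynlrb2 are darkest in HFD+Mino 1 and 2.

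Summed over the set without Tppp3, which alone made up 262 of 342 CPM in the first Control library, the Control samples stood at 79.7, 366 and 443 CPM. The HFD samples stood at 935, 658 and 526 CPM, and the HFD+Mino samples at 1066, 1339 and 773 CPM. Every HFD sample lay above every Control sample, and the nearest pair was the third HFD and the third Control library. Levels also differed widely within the set. Per kilobase of exon, the mean level over the 9 samples ran from 0.165 CPM for Dnah11 to 184 CPM for Tppp3, with a median of 2.80 CPM.

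**Figure D2:**
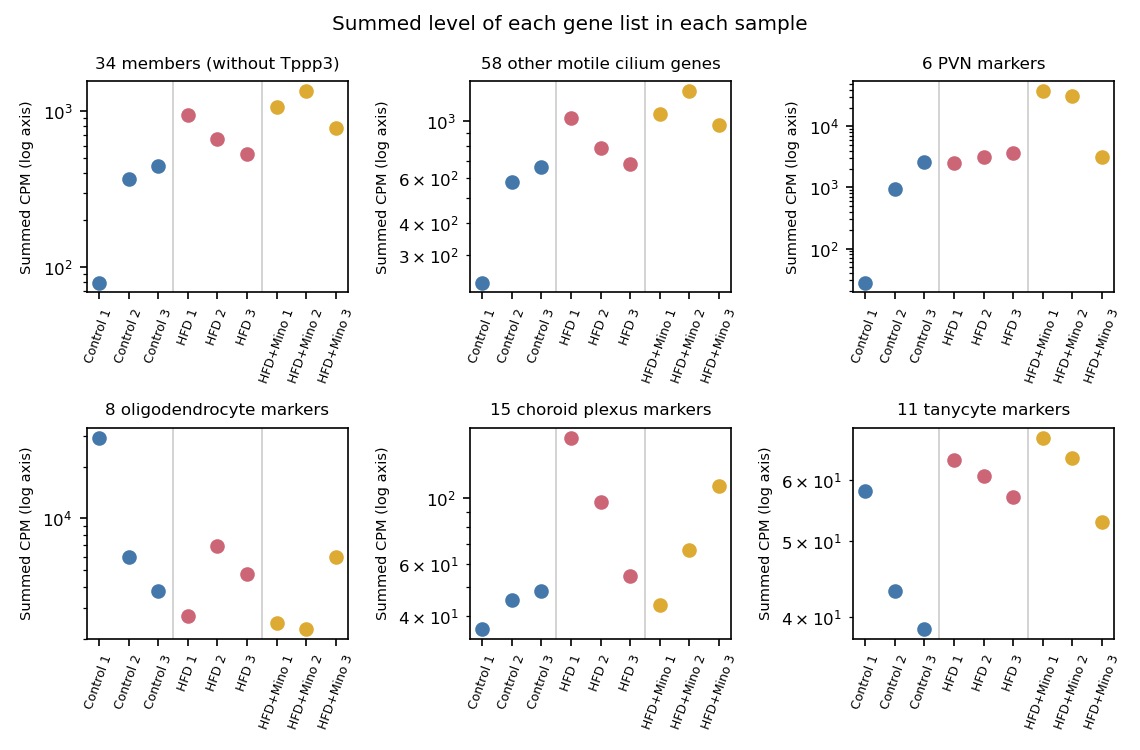
Summed CPM (log axes) of the members without Tppp3, of 58 other motile cilium genes and of 4 marker lists, in each of the 9 samples. The member sum is lowest in Control 1 at 79.7 CPM and highest in HFD+Mino 2 at 1339 CPM. PVN markers are lowest and oligodendrocyte markers highest in Control 1.

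For HFD against Control, the question was whether the high-fat diet alone moved these genes. All 35 had a log2 fold change above 0, with a median of 1.27 and a range from 0.07 (Tppp3) to 2.13 (Cfap54), against a median of 0.00 over all tested genes, of which 50.3% lay above 0. None was called at a false discovery rate (FDR) under 0.01 with at least a 1.5-fold difference in edgeR's quasi-likelihood test, where 1.74% of all tested genes were. At an unadjusted p under 0.05, 18 members were higher and none was lower in HFD, and 11.3% of all tested genes were higher. Members at that level in either direction numbered 12 without the first Control library, 6 without the first HFD library, 29 without the third Control library and 11 with the 6 samples of these groups alone. The shares of all tested genes at that level were then 13.6%, 14.7%, 24.1% and 30.5%, against 20.5% with 9 samples. All 3 HFD samples lay above all 3 Control samples for 26 members, and for 19.7% of all tested genes. Because the first Control library was the lowest of its group for nearly all members, the same number, 26, lay above the second and the third Control libraries alone, as did 23.3% of all tested genes. Without that library all 35 fold changes stayed above 0 and their median was 0.80. DESeq2 called 5 members higher in HFD (Rfx3, Spef2, Cfap54, Cfap126 and Ak9), beside 4.57% of its 25025 genes.

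For HFD+Mino against HFD, which asks what minocycline did under the diet, the members divided. The median log2 fold change was -0.31, against 0.01 over all tested genes, and 13 members lay above 0, where 50.3% of all tested genes did. Without the first HFD library, the highest sample for 22 members, the median was 0.081 and 19 members lay above 0. No member was called, where 4.15% of all tested genes were. At an unadjusted p under 0.05, 5 members were higher (Mia, Rarres2, Tppp3, Dynlrb2 and Pifo) and 3 were lower (Rfx3, Rsph4a and Spef2), where 21.6% of all tested genes were higher and 19.8% lower. The groups did not overlap for 7 members that were higher with minocycline, where 23.3% of all tested genes were, and for 6 that were lower, where 23.5% were. The members' shares were near or under those of all genes. The 8 members at an unadjusted p under 0.05 became 14 without the first Control library, 5 without the first HFD library, and 4 without the second HFD, the third HFD, the first HFD+Mino or the second HFD+Mino library. Without the first Control library, which is in neither group but is in the fit, Mia was called (log2 fold change 1.72, FDR = 0.00946), beside 5.27% of all tested genes. DESeq2 called Rarres2 and Tppp3 higher and Rfx3 lower, beside 15.2% of its genes.

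HFD+Mino against Control compares diet and drug together with neither, and it shares its groups with both comparisons above. All 35 fold changes were above 0, with a median log2 of 1.28, against -0.02 over all tested genes, of which 48.8% lay above 0. The threshold was passed by no member and by 0.0% of all tested genes. At an unadjusted p under 0.05, 16 members were higher, as were 12.7% of all tested genes, and none was lower. The 3 HFD+Mino samples lay above the 3 Control samples for 19 members, and for 8.93% of all tested genes. They lay above the second and the third Control libraries alone for 19 members too, and for 16.3% of all tested genes. Without the first Control library the median was 0.78 and 31 members lay above 0. DESeq2 called 6 members higher (Rarres2, Tppp3, Dynlrb2, Tekt4, Cfap126 and Pifo), beside 1.14% of its genes.

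The 3-way test asks whether the 3 groups differ in any way, and a call also needed HFD to be the highest or lowest group, 1.5-fold from the mean of the 3. It called no member, where 2.13% of all tested genes were called. The median distance of HFD from that mean was 0.54 on the log2 scale, or 0.38 without the first Control library, with 26 members above 0. At an unadjusted p under 0.05 there were 19 members, with or without that library. With all 9 samples HFD was above the mean in 14 of them, where it was so in 18.2% of all tested genes, and below it in 5, where it was so in 20.8%. DESeq2 called 4 members (Rfx3, Spef2, Cfap54 and Ak9), beside 9.51% of its genes.

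Same-numbered Control and HFD+Mino samples deviated together in their counts, which cannot by itself establish a pairing. With the number as a block in these groups, chosen from the same counts, some members passed the threshold. Foxj1, Rfx3 and Rsph4a were then higher in HFD than in Control, beside 6.22% of all tested genes, and they were also the 3 members called in the 3-way test, beside 13.2%. Rfx3 was lower and Tppp3 higher in HFD+Mino than in HFD, beside 25.6%. Tppp3 was higher in HFD+Mino than in Control, beside 3.18%. Leaving out the first Control library and the first and second HFD+Mino libraries together, which was tried once the data had been seen, gave 1 call, Rfx3 higher in HFD than in Control (log2 fold change 1.40, FDR = 0.00238), beside 4% of all tested genes. Rfx3 was then also called in the 3-way test, beside 4.09%. The member medians without these 3 libraries were 0.80 for HFD against Control, -0.21 for HFD+Mino against HFD and 0.66 for HFD+Mino against Control. The third library was then the only one in HFD+Mino, so the HFD+Mino values of this fit rest on a single mouse.

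**Figure D3:**
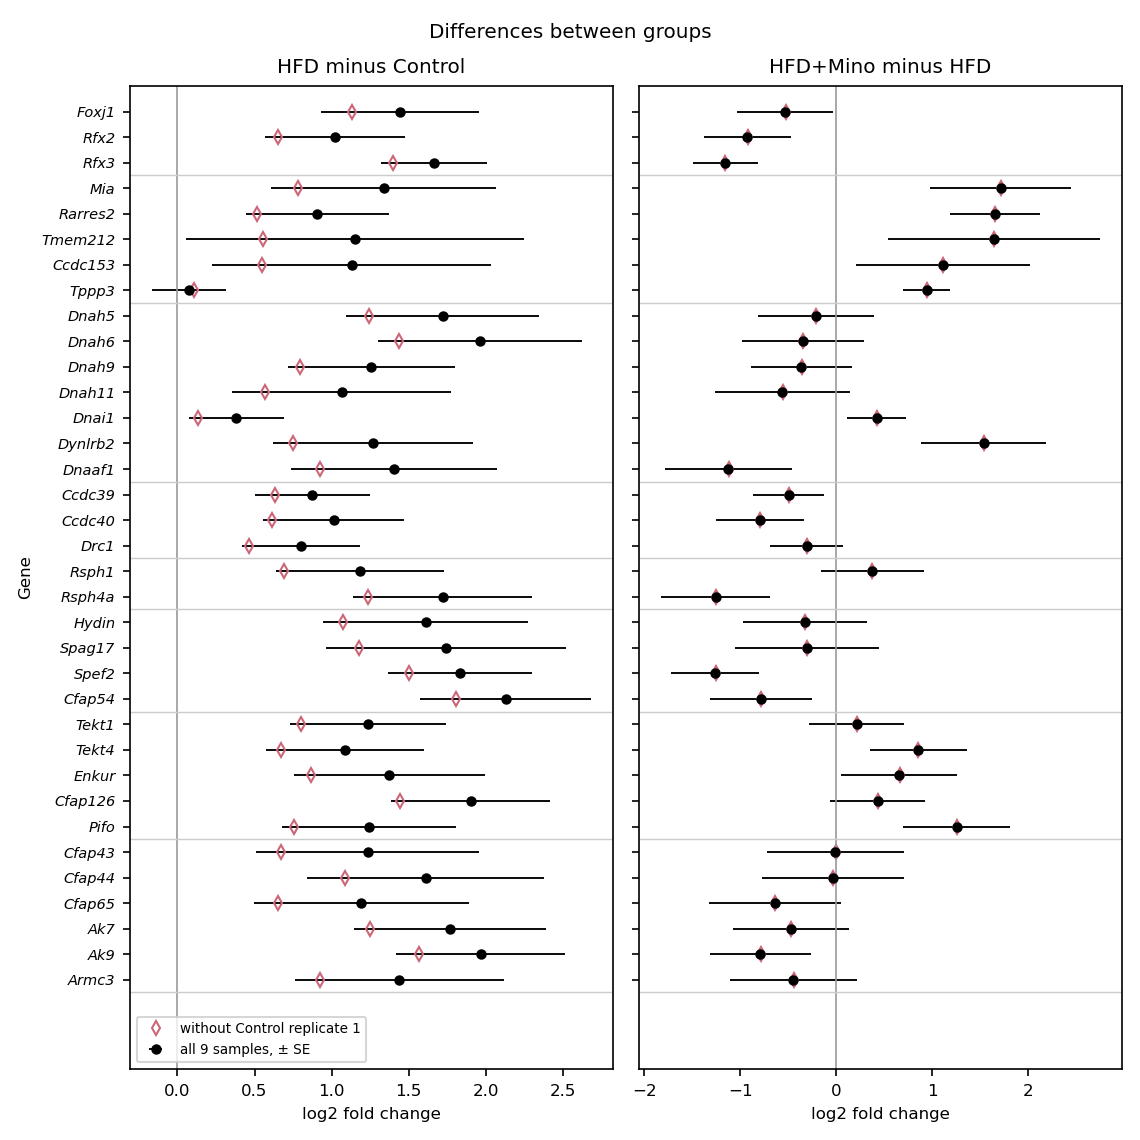
Log2 fold change of each of the 35 genes for HFD minus Control (left) and HFD+Mino minus HFD (right), as filled circles ± SE from edgeR with all 9 samples and open diamonds without Control replicate 1, with gray lines between roles. Left, all 35 circles and diamonds are above 0. Right, 13 circles are above 0, and the 5 ependymal markers are among them.

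Among the transcription factors, Rfx3 came nearest to the threshold. Rfx3 (chr19:27761721-28014669, GRCm38 as for all positions here) encodes an RFX factor needed for ciliogenesis. Its level was 7.18, 13.2 and 15.4 CPM in Control, 39.7, 39.2 and 34.8 CPM in HFD, and 10.5, 22.96 and 17.4 CPM in HFD+Mino. The HFD samples were close together and above all 6 others. The log2 fold change was 1.67 ± 0.34 (SE, edgeR, FDR = 0.0174) for HFD against Control and -1.16 ± 0.34 (FDR = 0.0295) for HFD+Mino against HFD, and 1.40 (FDR = 0.0513) and -1.16 (FDR = 0.0163) without the first Control library. With the replicate block these were 1.73 (FDR = 0.000896) and -1.22 (FDR = 0.00118). Rfx3 has 11034 nt of exon. Tested genes around 10825 nt had medians of 0.43 for HFD against Control and -0.60 for HFD+Mino against HFD. With the trend on exon length removed, the FDR of Rfx3 was 0.0311 for HFD against Control. No member was then under 0.0702 for HFD+Mino against HFD. Over all alternatives the log2 fold change of Rfx3 in the latter comparison ran from -1.43 to -0.58. Foxj1 (chr11:116330704-116335499), the regulator of the motile cilium program, stood at 3.48, 5.22 and 10.9 CPM in Control, 22.9, 18.3 and 12.1 CPM in HFD, and 8.66, 6.80 and 21.3 CPM in HFD+Mino. HFD lay above Control without overlap, and HFD+Mino spanned both groups. Its log2 fold change for HFD against Control was 1.44 ± 0.51 (FDR = 0.137), 1.13 without the first Control library (FDR = 0.375) and 1.60 with the replicate block (FDR = 0.00727). Rfx2, the other RFX factor here, stood at 2.51, 5.59 and 9.42 CPM in Control, 13.3, 12.5 and 9.78 CPM in HFD, and 4.72, 4.79 and 9.15 CPM in HFD+Mino. Every HFD sample exceeded the others, the lowest by a small margin, and neither log2 fold change passed (1.02 ± 0.45, FDR = 0.233, for HFD against Control, or 0.65 without the first Control library, and -0.93 ± 0.45, FDR = 0.145, for HFD+Mino against HFD).

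The X-box that RFX factors bind was looked for in promoter windows of 300 bases, from 250 before to 50 after a RefSeq start site (GRCm38.p6), which were found for 27 of the 35 members. The core GTTGCC, on either strand, was present in 13 of the 27 members (48.1%) and in 14.1% of 27025 genes with such a window. A full form, GTTNCC followed after 0 to 3 bases by GGNAAC, was present in Pifo and Ak9, 2 of 27 (7.41%), against 0.936% of all genes. The forkhead core TGTTTAC, a motif of FOXJ1's protein family, was present in 2 of 27 (7.41%), Ak7 and Cfap43, against 4.05% of all genes. A full X-box form can also hold the core. These are matches of letters and not measured binding sites. The windows of Pifo (chr3:106001448-106001747, minus strand, match at bases 231 to 244) and Ak9 (chr10:41303684-41303983, plus strand, match at bases 240 to 253) are shown because they hold the full form, given in capitals.
Pifo: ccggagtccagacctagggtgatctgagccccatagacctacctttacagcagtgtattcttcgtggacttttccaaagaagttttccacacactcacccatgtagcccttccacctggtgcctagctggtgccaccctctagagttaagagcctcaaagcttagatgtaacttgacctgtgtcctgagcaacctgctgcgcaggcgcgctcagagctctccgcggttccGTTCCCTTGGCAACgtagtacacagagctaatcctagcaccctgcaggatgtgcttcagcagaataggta
Ak9: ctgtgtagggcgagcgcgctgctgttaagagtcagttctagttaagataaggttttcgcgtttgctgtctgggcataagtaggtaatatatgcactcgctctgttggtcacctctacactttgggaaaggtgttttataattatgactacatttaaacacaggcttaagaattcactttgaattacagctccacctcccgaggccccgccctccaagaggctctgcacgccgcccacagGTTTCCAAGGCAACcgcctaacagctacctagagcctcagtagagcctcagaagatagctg

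The 5 genes grouped here as ependymal markers had their highest level with minocycline. For each of them all 3 HFD+Mino samples lay above all 3 HFD samples, as for 23.3% of all tested genes. They also lay above all 3 Control samples, as for 8.93% of all tested genes. Other members that mark ependymal cells were less uniform. HFD+Mino lay above HFD without overlap for Dynlrb2 and Pifo, and overlapped it for Rsph1, Tekt1 and Cfap126. Foxj1 had its highest mean in HFD. All 5 markers are shorter than the median member. Tested genes shorter than the median member had a median log2 fold change of 0.54 for HFD+Mino against HFD. In bins of tested genes by length, the median was 1.27 around 1001 nt, 0.78 around 1891 nt and 0.37 around 2563.5 nt. The markers ran from 716 nt (Tmem212) and 994 nt (Mia) to 2656 nt (Rarres2). The third HFD+Mino library was the lowest of its group for each of the 5 markers. Leaving out the first and second HFD+Mino libraries and the first Control library kept the third as the only HFD+Mino library. The log2 fold change against HFD was then 0.77 for Mia, 0.63 for Rarres2, 0.75 for Tmem212, 0.43 for Ccdc153 and 0.48 for Tppp3. Each was under its value with all 9 samples, given below. Mia (chr7:27179741-27181149), which encodes a small secreted protein, stood at 0.696, 12.8 and 11.9 CPM in Control, 28.5, 20.2 and 15.4 CPM in HFD, and 73.4, 98.8 and 37.6 CPM in HFD+Mino. Its differences were the largest of the set with minocycline, at 1.71 ± 0.73 on the log2 scale (FDR = 0.102) against HFD and 3.05 ± 0.77 (FDR = 0.132) against Control, or 2.5 (FDR = 0.147) against Control without the first Control library. Of Mia's 994 exon bases, 410 are shared with Gm21983 on the same strand in GENCODE M21. The annotation used for counting is not given in the sources used here, so whether this overlap changed Mia's count is not known. Rarres2 (chr6:48569696-48572845), which encodes the secreted chemoattractant chemerin, stood at 10.8, 31.4 and 39.8 CPM in Control, 67.2, 47.8 and 38.6 CPM in HFD, and 198, 201 and 81.7 CPM in HFD+Mino. HFD overlapped Control, and HFD+Mino lay above both. The log2 fold change was 1.65 ± 0.47 (FDR = 0.0267) against HFD and 2.56 ± 0.48 (FDR = 0.132) against Control. Without the first Control library these were 1.65 (FDR = 0.0103) and 2.17 (FDR = 0.147). Rarres2 had the lowest 3-way FDR of the set, 0.0144, with a log2 distance of HFD from the group mean of -0.25. Its exons share 892 bases with Lrrc61 on the opposite strand, and whether counting used strand is not given in the sources used here.

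Tmem212, which encodes a membrane protein, had the largest ratio between Control samples of the 5. It had 1 read in the first Control library (0.025 CPM), against 39.6 and 36.0 CPM in the others. The HFD samples stood at 78.9, 49.0 and 40.03 CPM and the HFD+Mino samples at 188, 239 and 97.2 CPM. HFD lay just above the second and the third Control libraries, and the log2 fold change for HFD against Control of 1.15 ± 1.10 (FDR = 0.589) was 0.56 (FDR = 0.634) without the first. The difference between HFD+Mino and HFD was 1.64 ± 1.11 (FDR = 0.285), and without the first Control library 1.65 (FDR = 0.0103). Ccdc153, which encodes a coiled-coil protein, followed the same order, at 0.522, 39.7 and 42.2 CPM in Control, 77.6, 55.5 and 47.2 CPM in HFD, and 134, 172 and 83.6 CPM in HFD+Mino. It was under 1 CPM only in the first Control library. Its log2 fold change for HFD+Mino against HFD was 1.11 ± 0.90 (FDR = 0.379), or 1.11 (FDR = 0.0190) without that library, and it was called in neither fit. Between HFD and Control its log2 fold change was 1.13 ± 0.91 (FDR = 0.517), or 0.55 without the first Control library.

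Tppp3 (chr8:105467492-105471422), a tubulin polymerization-promoting protein that other cells also express, was the exception to the Control pattern. Its level was 262, 272 and 217 CPM in Control, 268, 302 and 220 CPM in HFD, and 641, 497 and 378 CPM in HFD+Mino. The first Control library was not low for it, HFD and Control overlapped, and HFD+Mino lay above both. The log2 fold change was 0.94 ± 0.24 (FDR = 0.0191) for HFD+Mino against HFD, 1.01 ± 0.24 (FDR = 0.132) against Control, and 0.07 ± 0.24 (FDR = 0.892) for HFD against Control. Without the first Control library the latter differences were 1.05 and 0.105. With the replicate block the first was 0.91 (FDR = 0.00262) and the second 0.99 (FDR = 0.00886).

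**Figure D4:**
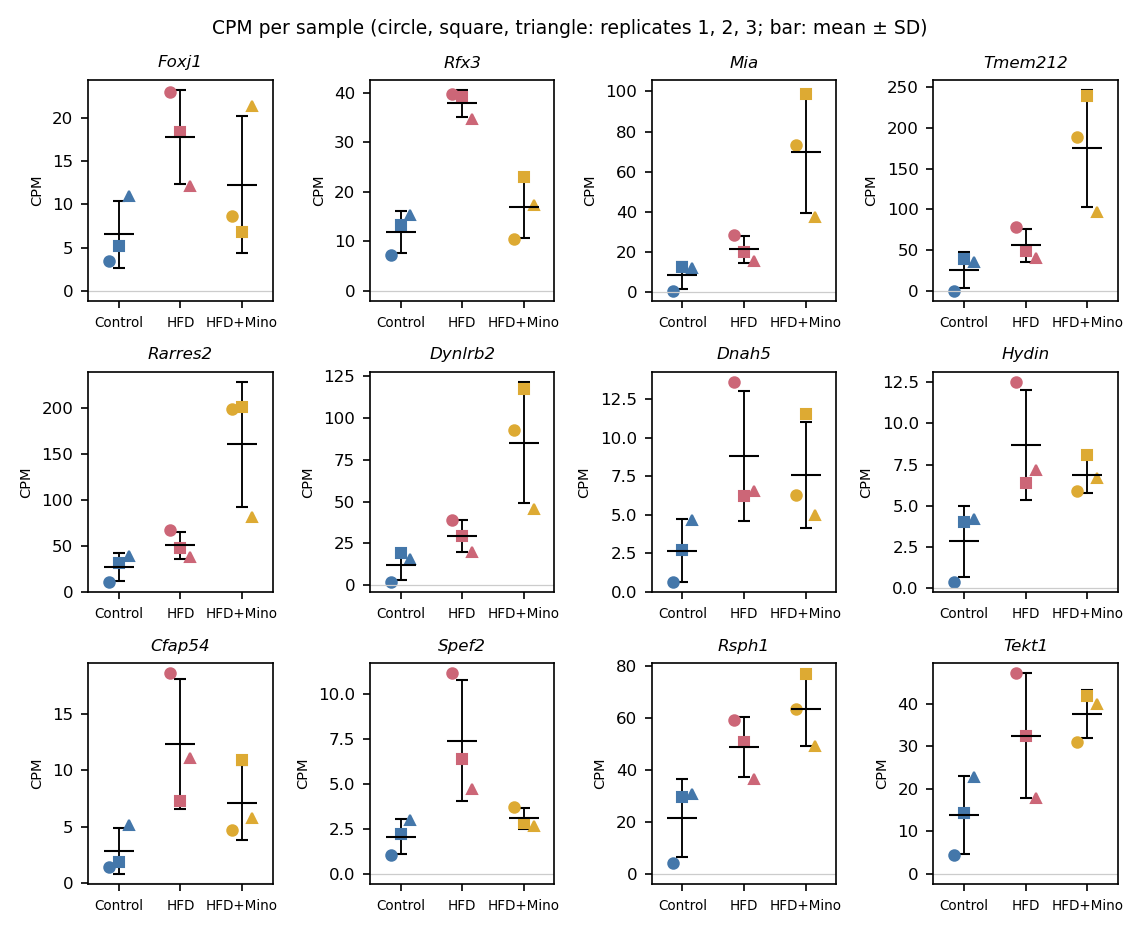
CPM of 12 members in Control, HFD and HFD+Mino (3 samples each), with circles, squares and triangles for replicates 1, 2 and 3, and a bar for the mean ± SD. Rfx3 in HFD is above all other samples at 34.8 to 39.7 CPM, and Mia, Tmem212, Rarres2 and Dynlrb2 are highest in HFD+Mino.

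The dynein genes did not move as a block. Dnah5, an outer-arm heavy chain, stood at 0.621, 2.71 and 4.68 CPM in Control, 13.7, 6.21 and 6.57 CPM in HFD, and 6.26, 11.5 and 5.00 CPM in HFD+Mino. HFD and HFD+Mino overlapped and both lay above Control, with a log2 fold change of 1.72 ± 0.63 (FDR = 0.147) for HFD against Control, or 1.24 (FDR = 0.283) without the first Control library. Dynlrb2, a dynein light chain and the shortest transcript of the set, stood at 1.76, 19.4 and 15.5 CPM in Control, 39.2, 29.3 and 19.96 CPM in HFD, and 92.9, 117 and 45.7 CPM in HFD+Mino. The 3 groups did not overlap, and the log2 fold change was 1.27 ± 0.65 (FDR = 0.299) for HFD against Control, or 0.75 without the first Control library, and 1.53 ± 0.65 (FDR = 0.0995) for HFD+Mino against HFD. Without that library the latter was 1.54 (FDR = 0.01305) and was not called. Dnai1, an outer-arm intermediate chain, had the smallest difference of the dyneins between HFD and Control. Its level was 8.32, 15.5 and 15.3 CPM in Control, 21.5, 17.5 and 12.1 CPM in HFD, and 26.2, 21.2 and 21.1 CPM in HFD+Mino, with a log2 fold change of 0.38 ± 0.31 (FDR = 0.516) for HFD against Control, or 0.14 without the first Control library, and 0.42 ± 0.31 (FDR = 0.323) for HFD+Mino against HFD. Dnaaf1, a factor that assembles dynein arms in the cytoplasm, stood at 0.397, 1.67 and 2.97 CPM in Control, 6.83, 3.10 and 3.44 CPM in HFD, and 1.75, 1.15 and 3.17 CPM in HFD+Mino. Its 3 HFD samples lay above its 3 Control samples, 2 of 3 by a small margin, and its log2 fold change for HFD+Mino against HFD of -1.13 ± 0.66 (FDR = 0.221) went the other way from Dynlrb2. Between HFD and Control it was 1.40 ± 0.67 (FDR = 0.263), or 0.93 without the first Control library. Dnaaf1 shares 584 bases of exon with Taf1c on the opposite strand. The other heavy chains, Dnah6 (inner arm) and Dnah9 and Dnah11 (outer arm), had log2 fold changes of 1.06 to 1.96 for HFD against Control, or 0.57 to 1.44 without the first Control library.

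The rulers, nexin-dynein links and radial spokes had their lowest mean in Control. Their highest mean was in HFD for Ccdc39, Ccdc40, Drc1 and Rsph4a and in HFD+Mino for Rsph1. Ccdc39 and Ccdc40 encode the molecular ruler that sets the repeat of the axoneme. Ccdc39 stood at 5.09, 9.43 and 9.24 CPM in Control, 18.3, 11.8 and 13.6 CPM in HFD, and 5.65, 12.3 and 12.98 CPM in HFD+Mino. Ccdc40 stood at 4.52, 12.7 and 19.1 CPM in Control, 30.2, 25.3 and 17.9 CPM in HFD, and 9.11, 15.3 and 17.8 CPM in HFD+Mino. The partners differed in overlap, since HFD lay above Control for Ccdc39 and overlapped it for Ccdc40. Their log2 fold changes for HFD against Control were 0.88 ± 0.37 (FDR = 0.214) and 1.01 ± 0.46 (FDR = 0.239), and 0.63 and 0.62 without the first Control library. Ccdc39 shares 1256 bases of exon with Ttc14 on the opposite strand. Drc1, of the nexin-dynein link, had a log2 fold change of 0.80 ± 0.38 (FDR = 0.267), or 0.46 without the first Control library. Rsph1, of the radial spoke head, stood at 4.27, 29.6 and 30.5 CPM in Control, 59.2, 50.8 and 36.4 CPM in HFD, and 63.5, 77.0 and 49.0 CPM in HFD+Mino. Both diet groups lay above Control, and they overlapped each other. The other spoke head gene, Rsph4a, had log2 fold changes of 1.72 ± 0.58 (FDR = 0.118) for HFD against Control and -1.26 ± 0.57 (FDR = 0.120) for HFD+Mino against HFD, where Rsph1 had 1.18 ± 0.54 (FDR = 0.249) and 0.37 ± 0.54 (FDR = 0.632). Without the first Control library the difference between HFD and Control was 1.23 for Rsph4a and 0.69 for Rsph1. Between HFD+Mino and HFD it was then -1.26 (FDR = 0.0201) for Rsph4a and 0.38 (FDR = 0.289) for Rsph1.

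In the central apparatus all 3 HFD samples lay above all 3 Control samples for each of 4 genes. The same held for 19.7% of all tested genes. All 4 are longer than the median member, at 8489 nt (Spag17) to 18037 nt (Hydin). Tested genes at least as long as the median member had a median of 0.19 for HFD against Control. By length bin this median rose from 0.22 around 7970.5 nt to 0.52 around 15133 nt. Cfap54 (chr10:92775609-93083487) stood at 1.44, 1.86 and 5.15 CPM in Control, 18.7, 7.28 and 11.1 CPM in HFD, and 4.69, 10.96 and 5.76 CPM in HFD+Mino. Its log2 fold change for HFD against Control was the largest of the set, 2.13 ± 0.55 (FDR = 0.0470), and 1.80 (FDR = 0.139) without the first Control library. Spef2 (chr15:9578193-9748868) stood at 1.04, 2.20 and 2.97 CPM in Control, 11.1, 6.35 and 4.705 CPM in HFD, and 3.73, 2.82 and 2.68 CPM in HFD+Mino. Spef2 in HFD exceeded both other groups, with a log2 fold change of 1.83 ± 0.47 (FDR = 0.0428) against Control, or 1.503 (FDR = 0.119) without the first Control library. Between HFD+Mino and HFD, Spef2 had the lowest log2 fold change of the set, -1.26 ± 0.46 (FDR = 0.0608). Hydin, a very large protein of the central pair and the longest transcript of the set, stood at 0.348, 4.01 and 4.18 CPM in Control, 12.5, 6.38 and 7.14 CPM in HFD, and 5.92, 8.10 and 6.67 CPM in HFD+Mino. Spag17 stood at 0.149, 3.33 and 3.21 CPM in Control, 11.8, 6.87 and 3.71 CPM in HFD, and 6.06, 6.61 and 5.38 CPM in HFD+Mino. For Hydin and Spag17 the first HFD library stood far above the HFD+Mino range, and the other HFD libraries were inside it, near it or under it. Their log2 fold changes for HFD against Control were 1.61 ± 0.66 (FDR = 0.201) and 1.74 ± 0.78 (FDR = 0.236), or 1.07 and 1.18 without the first Control library. Spag17 shares 820 bases of exon with Wdr3 on the opposite strand.

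Tektins and microtubule inner proteins, which line or stabilize the doublets, were 5 of 5 higher at an unadjusted p under 0.05 for HFD+Mino against Control, where 12.7% of all tested genes were. All 5 are shorter than the median member, at 1127 nt (Pifo) to 1997 nt (Tekt4). In this comparison tested genes shorter than the median member ran higher, with a median of 0.27. The median was 1.04 in the length bin around 1001 nt, 0.61 around 1513 nt and 0.46 around 1891 nt. Tekt1 stood at 4.37, 14.3 and 22.8 CPM in Control, 47.2, 32.5 and 17.8 CPM in HFD, and 31.1, 41.7 and 39.9 CPM in HFD+Mino. HFD overlapped both other groups, and HFD+Mino lay above Control, with a log2 fold change of 1.44 ± 0.51 (FDR = 0.158), or 1.01 (FDR = 0.192) without the first Control library. Tekt4, Enkur, Cfap126 and Pifo had log2 fold changes of 1.94 to 2.49 for HFD+Mino against Control, or 1.53 to 2.01 without the first Control library. Among the remaining axonemal genes (Cfap43, Cfap44, Cfap65, the adenylate kinases Ak7 and Ak9, and Armc3), the log2 fold change was 1.19 to 1.97 for HFD against Control, or 0.65 to 1.57 without the first Control library, and -0.79 to -0.01 for HFD+Mino against HFD.

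The division of the members between HFD and HFD+Mino went with transcript length. Median exon length was 3650 nt, from 556 nt for Dynlrb2 to 18037 nt for Hydin. The 17 members shorter than the median had a median log2 fold change of 0.66 for HFD+Mino against HFD, and 13 were above 0. Tested genes of that length range had a median of 0.54. The 18 members at or over the median had -0.53 and none above 0, and tested genes of that range had -0.41. Spearman's rho between exon length and this fold change was -0.66 over the 35 members and -0.49 over 15625 tested genes, as a description across genes that share the same libraries. With the trend on exon length removed, the member median was -0.03, 17 members lay above 0 and 1 member had an unadjusted p under 0.05, where 34.1% of all tested genes did. In HFD against Control the members lay above other genes on both sides of the median length, at 1.23 against -0.21 for shorter genes and 1.64 against 0.19 for longer genes. Removing the trend left that comparison at a median of 1.28, with all 35 above 0.

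**Figure D5:**
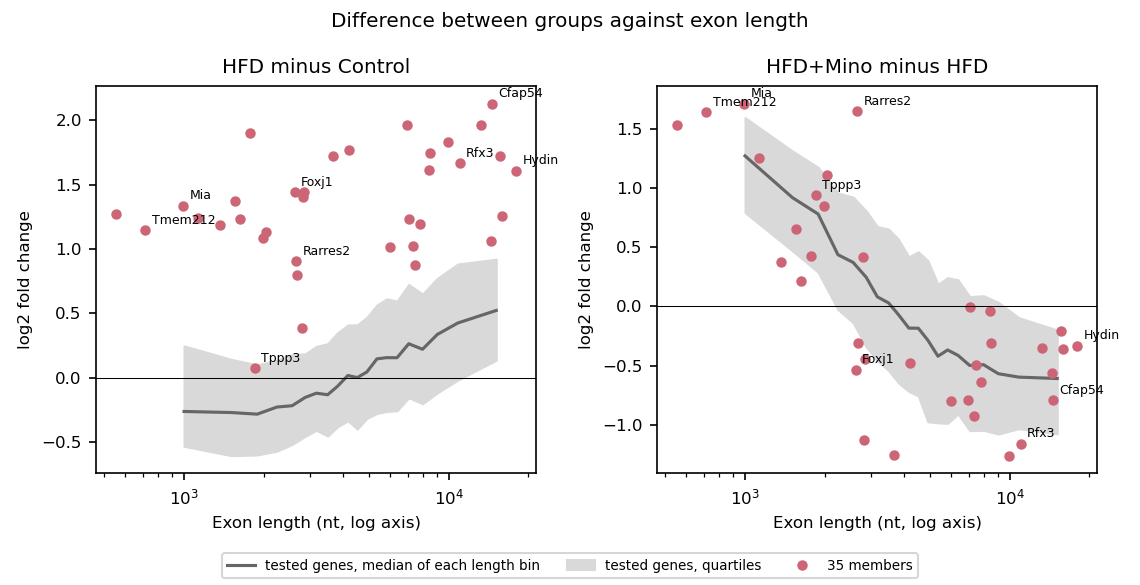
Log2 fold change against exon length (nt, log axis) for HFD minus Control (left) and HFD+Mino minus HFD (right), with the 35 members as points, the median of tested genes in each of 20 length bins as a line, and their quartiles as a band. Left, members lie above the line at all lengths. Right, they follow its fall, from 1.71 (Mia) to -1.26 (Spef2).

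The 58 other motile cilium genes of a comparison list were read the same way. Of these, 55 lay above 0 for HFD against Control with a median log2 fold change of 0.94, and 55 for HFD+Mino against Control with a median of 0.95. For HFD+Mino against HFD the median was -0.05, and none of the 58 was called in any of the 3 comparisons. At an unadjusted p under 0.05, 19 were higher in HFD than in Control, where 11.3% of all tested genes were. In HFD+Mino 24 were higher than in Control, where 12.7% of all tested genes were. None was lower in either comparison. Without the first Control library the medians were 0.58 for HFD against Control and 0.58 for HFD+Mino against Control, with 53 and 48 above 0. In that fit 2 of the 58 were called higher in HFD+Mino than in HFD, beside 5.27% of all tested genes called in either direction. Of 12 upstream regulators of multiciliation 6 lay above 0 for HFD against Control, with a median of -0.12, or -0.17 without the first Control library. Intraflagellar transport and primary cilium genes, which build the cilia of nearly all cells, had a median of 0.21 over 44 genes, with 33 above 0 and none called, and a median of 0.16 without the first Control library. In HFD+Mino against HFD 1 of these 44 was called higher and 1 lower, beside 4.15% of all tested genes. Without that library these were 1 and 2, beside 5.27%.

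Neighboring cell types of the ventricle were read beside the members. Of 15 choroid plexus markers, 12 passed the filter, and their sum was 36.0 to 48.5 CPM in Control, 54.4 to 160 CPM in HFD and 43.6 to 110 CPM in HFD+Mino, highest in the first HFD library as for 22 members. Their median log2 fold change for HFD against Control was 0.98, with 11 of 12 above 0 and none called, and was 1.45 over 13 tested markers without the first Control library. Ttr, the most abundant transcript of choroid plexus, was between 0.124 and 2.10 CPM in every library, and Aqp1, Slc4a5 and Tmem72 were below the filter. The 11 tanycyte markers summed to 38.5 to 57.97 CPM in Control, 57.0 to 63.6 CPM in HFD and 52.9 to 68.0 CPM in HFD+Mino. Tanycytes are the non-ciliated cells of the floor and lower walls of the ventricle. Of their markers Nes, also expressed by other cells, was called higher in HFD than in Control (log2 fold change 2.07 ± 0.37) and lower in HFD+Mino than in HFD (-1.96 ± 0.37), and the median was -0.06 for HFD against Control, or 0.29 without the first Control library. Without that library Nes had an FDR of 0.0297 against Control and was not called. PVN marker sums of 2479 to 3726 CPM in HFD exceeded those of the second Control library (932 CPM) and, for 2 of 3 samples, of the third (2563 CPM). Oligodendrocyte markers had 0 of 8 above 0 for HFD against Control (median log2 fold change -1.47) and for HFD+Mino against Control (-1.78, with 6 lower at an unadjusted p under 0.05). Without the first Control library these medians were 0.04 and -0.38. The sum of 8 astrocyte markers was 2693 to 3059 CPM in Control, 3373 to 3750 CPM in HFD and 2446 to 2829 CPM in HFD+Mino, and for this sum HFD did not overlap the others. Taken singly, 1 of the 8 was higher in HFD than in Control without overlap, where 19.7% of all tested genes were. Their log2 fold change was above 0 for 6 of 8. The median log2 fold change of these markers for HFD against Control was 0.22, or 0.27 without the first Control library. The part of PVN, oligodendrocyte, astrocyte and choroid plexus content in the members' differences was not tested.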

How the data were processed

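cDNA libraries from PVN punches were sequenced, and, per the labels and the methods of the study, the authors aligned reads to mm10 with HISAT2 and assigned them to genes with featureCounts. Tool versions and strand settings are not given in the sources used here. The deposited values are raw counts per gene in 1 table of 27179 genes and 9 samples, with no normalization. The authors named edgeR for their own tests.

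The counts were tested in edgeR 4.0.16 (R 4.3.3), with filterByExpr, TMM scaling and 1 mean per group over all 9 samples, by quasi-likelihood tests with Benjamini-Hochberg adjustment over all 17344 genes left. A gene was called at an FDR under 0.01 and at least a 1.5-fold difference. In the 3-way test HFD also had to be the highest or lowest group and 1.5-fold from the mean of the group log2 values. CPM use TMM-scaled library sizes. The SE of a log2 fold change is its size divided by the root of the F statistic. DESeq2 1.42.0 and other settings were alternatives, and the procedure was checked on simulated counts. Groups came from the sample titles. P-values measure the spread between 3 mice per group. Depth limits low genes, and the shallowest library, the first HFD library, had 17728590 reads. No member was under 1 CPM there, and the lowest was Dnah11 at 5.42 CPM. Members under 1 CPM were nearly all in the first Control library, the deepest at 42326213 reads.

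Replicate numbers were checked for pairing by correlating deviations from group means. Same-numbered Control and HFD+Mino samples gave 0.135, 0.163 and 0.292, while Control with HFD gave -0.133 to -0.006 and HFD with HFD+Mino gave -0.152 to -0.052. For the block, the numbers were taken to pair Control with HFD+Mino, from the counts only. No label names a shared litter, batch or day. Correlations between differently numbered samples were not computed, so these values cannot establish a pairing. The block was thus chosen from the same counts that it was then used to test. For HFD the deposited column names carry numbers other than the replicate numbers used here.

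Exon lengths and overlaps came from GENCODE M21 (GRCm38), with a length for 15625 tested genes. Gene positions, promoter windows and synonyms came from RefSeq tables of GRCm38.p6. Genes were named by role and by rule: 18 fixed members, the largest difference and the lowest FDRs of each comparison, and at most 2 genes per other list, except where a count of few is named. The PVN markers, the choroid plexus genes at low levels and Nes were named after their values were seen. The members, lists and tests were chosen with earlier results of these data known. Astrocyte, neuron, endothelial and microglia marker lists were also counted, with no gene called in any comparison with all 9 samples. Without the first Control library, 1 astrocyte and 1 neuron marker were called lower in HFD+Mino than in HFD. In that fit 1 endothelial marker was called higher, and 5.27% of all tested genes were called.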

Additional observations from a re-analysis of the deposited data

How the results depend on the processing

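With all settings as described, no member was called in any of the 4 tests. For HFD against Control, DESeq2 called 5 members, edgeR's likelihood ratio test 4, the fit without a filter on low counts 1, the replicate block in Control and HFD+Mino 3, that block with the trend on exon length removed 3, the fit without 3 libraries (the first Control and the first and second HFD+Mino, chosen after seeing the data) 1, and an FDR under 0.05 3. For HFD+Mino against HFD these were 3 with DESeq2, 3 with the likelihood ratio test, 1 without the filter, 2 with the block and 3 at the FDR under 0.05. For HFD+Mino against Control they were 6, 4 and 1 with DESeq2, the likelihood ratio test and the block. For the 3-way test they were 4, 3, 1, 3, 3, 1 and 3 with DESeq2, the likelihood ratio test, no filter, the block, the block with length, the fit without 3 libraries and the FDR under 0.05. The share of all tested genes called was 5.57% and 19.1% by the likelihood ratio test, 1.92% and 7.61% without the filter and 5.77% and 27.4% at the FDR under 0.05, for HFD against Control and HFD+Mino against HFD respectively, and 12.9%, 5.19% and 13% in the 3-way test. It was 0.611% for HFD+Mino against Control by the likelihood ratio test, and 5.21% for HFD against Control and 8.36% in the 3-way test with the block and length. The causes were not tested. A replicate block in all 9 samples called 0 members in each test. Leaving out 1 library at a time gave 0 to 0 members for HFD against Control, 0 to 2 for HFD+Mino against HFD, 0 to 2 for HFD+Mino against Control and 0 to 1 for the 3-way test. Without the third HFD+Mino library, Rarres2 and Tppp3 were called against both other groups and Rfx3 in the 3-way test, beside 21.4% (against HFD), 6.28% (against Control) and 13.4% (3-way) of all tested genes, and without the first Control library Mia was called against HFD.

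Signs held in every alternative for 34 of 35 members in HFD against Control, 29 in HFD+Mino against Control and 20 in HFD+Mino against HFD. Each sign change given here was of a value not called. With 1 library left out at a time, the log2 fold change of Tppp3 for HFD against Control ranged from -0.043 (without the second HFD library) to 0.18. For HFD+Mino against HFD it ranged from -0.63 to 0.24 for Dnah5, from -0.50 to 0.023 for Hydin and from -0.63 to 0.18 for Spag17, above 0 for these without the first HFD library and for Dnah5 also without the third HFD+Mino library (0.021), and from -0.078 (without the third HFD library) to 0.57 for Tekt1. For HFD+Mino against Control it ranged from -0.30 to 0.62 for Rfx2 and from -0.21 to 0.98 for Dnaaf1, both below 0 without the first Control or the third HFD+Mino library, and from -0.18 (without the first Control library) to 0.71 for Ccdc40. In HFD+Mino against HFD, removing the trend on exon length gave 0.38 for Dnah5, 0.29 for Hydin, 0.21 for Spag17, -0.53 for Rsph1 and -0.50 for Tekt1, and with the replicate block as well 0.42, 0.38, 0.35, -0.44 and -0.53. Without the 3 libraries, which kept the third as the only HFD+Mino library, Foxj1 was at 0.22 and Rsph1 at -0.039. Values under 1 CPM in the first Control library rest on few reads, and 3 mice per group limit every test.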
